A study of Mus musculus with 36 samples.

Results

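The 33 genes described here are targets and partners of the transcription factor ATF4 in the amino acid response: 7 transcriptional regulators, 3 enzymes of asparagine and proline synthesis, 5 enzymes of serine synthesis and mitochondrial one-carbon metabolism, 2 subunits of an amino acid carrier, 12 cytosolic aminoacyl-tRNA synthetases and 4 other targets. They were taken from a list of names, with no threshold on a measured value. This list and the other gene lists below were chosen with earlier results of these data known. Shares of members set beside those of all genes or other lists are therefore descriptions, not independent evidence. All 33 were found among the 48795 gene identifiers in the count table, and all 33 were among the 15901 genes with enough counts to be tested.

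When amino acids run short, or when unfolded proteins, haem loss or double-stranded RNA trigger one of the eIF2α kinases, phosphorylated eIF2α slows general translation while upstream open reading frames let ATF4 be translated. ATF4 then binds C/EBP-ATF response elements, known as CARE sites, beside genes that make amino acids, import them and load them onto tRNA, and beside a stress arm that includes Ddit3, Trib3 and Chac1. Atf4 is controlled largely at translation, and the present measurement is of mRNA, so it does not report ATF4 protein.

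The cells were mouse lung pericyte-like cells. They were grown out of lung digests and freed of endothelial, leukocyte and epithelial cells by their surface markers CD31, CD45 and CD326. The remainder was selected for PDGFRβ, a receptor found on pericytes and also on fibroblasts. Exposure lasted 6 or 24 h and was to reduced-serum medium mixed with an equal volume of phosphate-buffered saline (media), or to the same medium mixed with an equal volume of bronchoalveolar lavage fluid (BALF), the fluid washed out of lungs, which was labelled uninjured or injured. Cells of female and male origin were exposed separately, which gave 12 groups of 3 libraries and 6 libraries for each treatment and time. Genotype, strain, age and kind of injury are not given. Nor do the labels tie any library to its own animal or culture, so that p-values measure the spread between these libraries only. Total RNA was made into stranded mRNA libraries, and the deposited values are counts per gene.

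The 36 libraries held between 17134840 and 35991683 counts. Of the pericyte markers, all 11 were detected, summing to between 696 and 2620 CPM (counts scaled to a common library size), and 8 fibroblast markers summed to between 10500 and 30900 CPM. Markers of the depleted types were low but not absent: 8 endothelial markers summed to between 7.94 and 185 CPM, 8 macrophage markers to between 17.4 and 86.6 CPM, and 8 epithelial markers to between 0.355 and 28.7 CPM. In bulk RNA, fewer cells of a type and less RNA per cell cannot be told apart. Levels below are CPM scaled by edgeR's trimmed mean of M-values, given as the lowest, median and highest of 6 libraries. Fold changes are the mean of the female and the male log2 fold change ± SE from edgeR's quasi-likelihood model of all 36 libraries, and a gene is said to rise or fall where the Benjamini-Hochberg adjusted p over all genes tested was below 0.05.

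Promoter sequence was looked at first, since a CARE site is what these genes are thought to share. In the 250 bases before each RefSeq transcription start (GRCm38.p6), the core TGATGNAA was searched on both strands, and 28 of the 33 members had an entry. It was found beside 8 of those 28, or 28.6%, and beside 1056 of 27025 genes in the whole table, or 3.91%. The stricter form TGATGCAA, each match of which is also a match of the first, was found beside 6 members, or 21.4%, against 248 genes, or 0.918%. Gars and Tars, 2 of these 8, changed in no comparison of treatments. The other 6 fell in at least 1 comparison of treatments, as did 12 of the 20 members whose window lacked the core and 20.5% of all genes tested. A difference between members with and without the core was not tested. Of the 6, 5 are shown, and their values are described below. Each is 28 bases, 5′ to 3′ on the gene's own strand, with the match in capitals; TTGCATCA is the reverse complement of TGATGCAA.
Asns: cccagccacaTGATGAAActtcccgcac
Chac1: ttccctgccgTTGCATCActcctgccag
Nupr1: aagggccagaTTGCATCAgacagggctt
Pycr1: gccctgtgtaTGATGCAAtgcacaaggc
Vldlr: gcagcaatagTTGCATCAgcgctcctag
The stretches lie at chr6:7693215-7693242 on the minus strand (Asns), chr2:119351039-119351066 on the plus strand (Chac1), chr7:126625563-126625590 on the minus strand (Nupr1), chr11:120643834-120643861 on the minus strand (Pycr1) and chr19:27216810-27216837 on the plus strand (Vldlr, before 1 of its 2 RefSeq starts). In GENCODE M21 models, the Chac1 and Pycr1 stretches lie upstream of every transcript of the gene. The Asns and Vldlr stretches lie upstream of all but 1 transcript, in which they are exonic, and the Nupr1 stretch lies within 4 of 6 transcripts and in an exon of 2. No match was found in this window beside Atf4, Atf5, Ddit3, Trib3, Sesn2, Stc2 or Cebpb, which says only that these letters are not in those 250 bases. A match is a description of sequence and not a measured binding site.

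Across the treatments, the members most often went down in BALF. At 6 h, 3 members rose and 11 fell in uninjured BALF against media, where 18.4% of all genes tested changed, 10.6% upward and 7.82% downward. The median log2 fold change of the 33 members was -0.22 against -0.01 over all genes. In injured BALF against media at 6 h, 1 rose and 14 fell, with 25.2% of all genes changed, 13.9% upward and 11.4% downward, and the medians were -0.26 and -0.01. At 24 h the same comparison again gave 1 higher and 14 lower members, beside 23.7% of all genes, 11.5% upward and 12.2% downward, with medians of -0.24 and -0.01. At each time, both comparisons with media share the media libraries, so their counts are not independent.

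The ranges of 6 libraries were compared as well. In uninjured BALF at 6 h, 3 members lay wholly above media and 9 wholly below, where 11.0% of all genes lay apart, 7.18% above and 3.87% below. In injured BALF against media, 1 lay above and 9 below at 6 h, beside 15.3% of all genes (9.42% above, 5.87% below), and 0 above and 7 below at 24 h, beside 8.56% (4.48% above, 4.08% below). Uninjured BALF at 24 h gave 0 above and 1 below, beside 0.73% (0.447% above, 0.283% below). Injured against uninjured BALF gave 1 above and 2 below at 6 h, beside 3.33% (1.97% above, 1.36% below), and 0 and 0 at 24 h, beside 2.04% (1.06% above, 0.975% below).

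Fewer members separated the remaining pairs of treatments. Uninjured BALF against media at 24 h gave 0 higher and 3 lower members, beside 0.868% of all genes, 0.516% upward and 0.352% downward. Injured against uninjured BALF gave 1 higher and 0 lower at 6 h, beside 3.43% of all genes (1.97% upward, 1.46% downward), and 1 higher and 4 lower at 24 h, beside 4.42% (2.38% upward, 2.04% downward). The share of members changed at 6 h there was 3.03%, which is near that of all genes. In all, 22 members changed in at least 1 of the 6 comparisons and 11 in none, beside 40.7% of all genes changed in at least 1. Every member that changed in a comparison had the same sign in female and male cells.

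**Figure D1:**
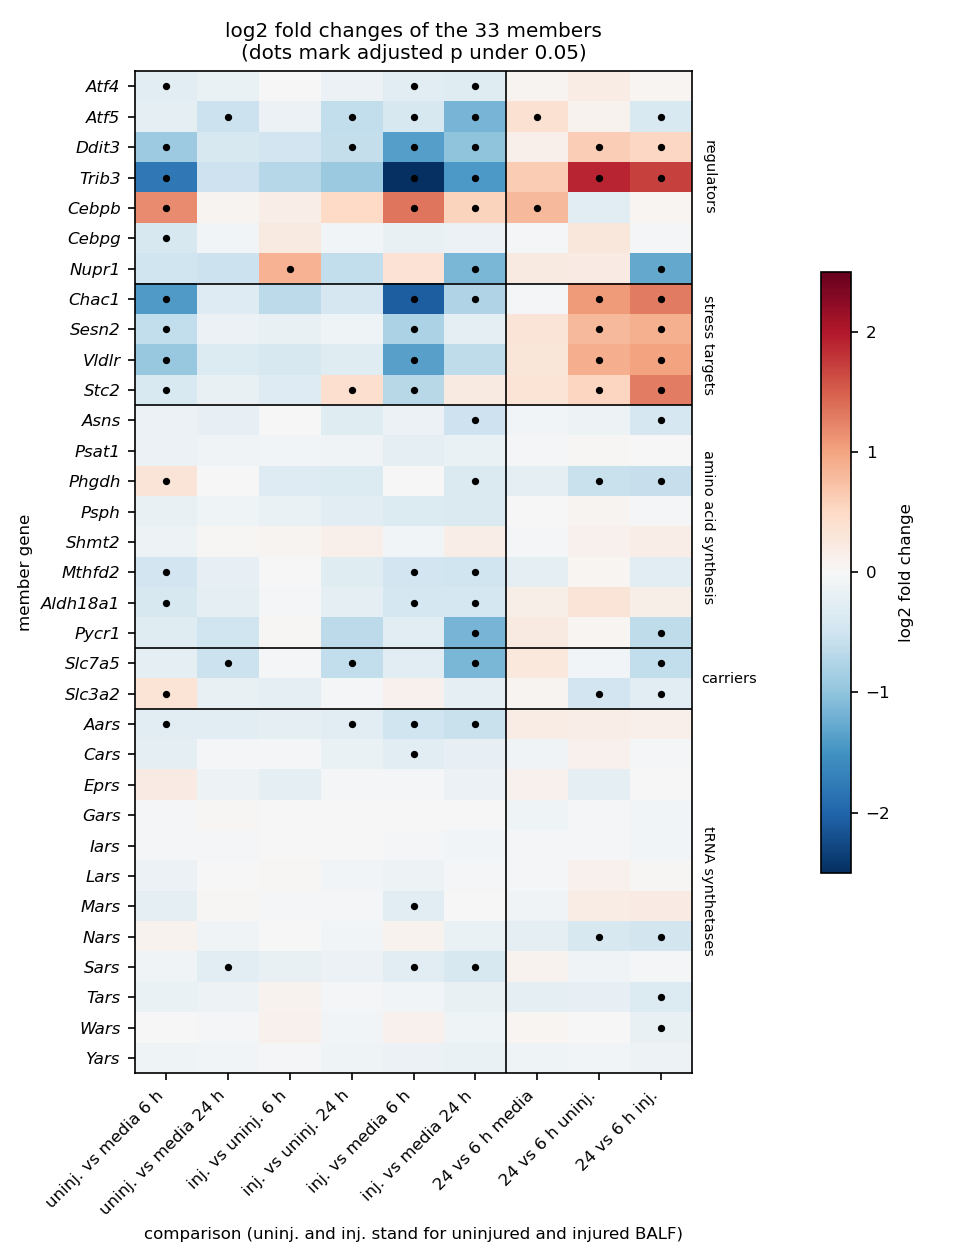
Log2 fold changes of the 33 members in the 6 comparisons of treatments and the 3 of times, in rows grouped by role, with blue for lower, red for higher and a dot where the adjusted p was below 0.05. The deepest blue at 6 h belongs to Trib3, Chac1, Ddit3 and Vldlr, which had log2 fold changes of -2.50, -2.06, -1.38 and -1.35 in injured BALF against media.

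Among the regulators, Atf4 itself fell by a small amount in BALF. Atf4 (ENSMUSG00000042406.7, chr15:80255184-80257541, plus strand) had 233, 248 and 335 CPM in media at 6 h, 195, 213 and 228 CPM in uninjured BALF and 197, 208 and 251 CPM in injured BALF. All 6 uninjured BALF libraries lay below all 6 media libraries, while the injured BALF range reached into that of media through female replicate 3. The fall was 0.29 ± 0.10 on the log2 scale in uninjured BALF (adjusted p = 0.043, edgeR) and 0.29 ± 0.10 in injured BALF (adjusted p = 0.035). The call was lost without any 1 of 11 libraries in the first case and 8 in the second, with adjusted p = 0.15 and 0.12 without female media 6 h replicate 3, the highest Atf4 library. At 24 h the levels were 233, 246 and 347 CPM in media, 206, 241 and 281 CPM in uninjured BALF and 179, 224 and 278 CPM in injured BALF. These ranges overlapped, and the fall of 0.30 ± 0.10 in injured BALF (adjusted p = 0.029) was lost without any 1 of 7 libraries, with 0.14 without female injured BALF 24 h replicate 2. Injured and uninjured BALF did not separate at either time, with a difference of 0.00 ± 0.10 at 6 h (adjusted p = 1.0) and -0.14 ± 0.10 at 24 h (adjusted p = 0.54).

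Trib3, a pseudokinase that feeds back on ATF4 and on AKT signalling, had the largest fold change of the members at 6 h. Trib3 (ENSMUSG00000032715.9, chr2:152337422-152344032, minus strand) had 21.4, 27.3 and 57.0 CPM in media, 8.02, 8.1 and 12.0 CPM in uninjured BALF, and 3.91, 5.44 and 8.35 CPM in injured BALF. Neither BALF range reached that of media. It was 3.45-fold lower in uninjured BALF (log2 -1.79 ± 0.37, adjusted p = 0.0011) and 5.67-fold lower in injured BALF (-2.50 ± 0.39, adjusted p = 1.7e-05), and no single library decided either call. The difference between the fluids, -0.72 ± 0.38, did not pass the test (adjusted p = 0.44). At 24 h the levels spread far more, with 23.5, 42.9 and 114 CPM in media, 12.4, 29.6 and 59.5 CPM in uninjured BALF, and 7.67, 15.2 and 37.8 CPM in injured BALF. All 3 ranges overlapped. Injured BALF was 2.71-fold below media (-1.44 ± 0.36, adjusted p = 0.0045), whereas uninjured BALF differed by -0.52 ± 0.36 (adjusted p = 0.64).

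Ddit3, which encodes the stress factor CHOP, followed the same order of levels. Ddit3 (ENSMUSG00000025408.15, chr10:127290774-127296288, plus strand) had 50.4, 59.3 and 70.9 CPM in media at 6 h, 23.8, 32.3 and 36.4 CPM in uninjured BALF, and 17.9, 24.3 and 24.7 CPM in injured BALF. Every BALF library lay below every media library. The fall was 1.86-fold in uninjured BALF (-0.90 ± 0.16, adjusted p = 0.00015) and 2.61-fold in injured BALF (-1.38 ± 0.16, adjusted p = 1.9e-07). The gap between the fluids was -0.48 ± 0.16 (adjusted p = 0.094). At 24 h Ddit3 had 47.2, 63.6 and 94.5 CPM in media, 36.9, 48.8 and 62.2 CPM in uninjured BALF, and 25.1, 31.2 and 40.7 CPM in injured BALF. Injured BALF lay wholly below media, 2.01-fold lower (-1.01 ± 0.16, adjusted p = 2.3e-05), and overlapped uninjured BALF, from which it was 1.51-fold lower (-0.60 ± 0.15, adjusted p = 0.022). That last call was lost without any 1 of 7 libraries (adjusted p = 0.092 without male uninjured BALF 24 h replicate 1). Uninjured BALF differed from media by -0.41 ± 0.15 at 24 h (adjusted p = 0.26). The 3′ end of Ddit3 overlaps the member Mars on the other strand by 68 bases, and the labels do not state which strand was counted.

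Atf5, a relative of Atf4 that is likewise controlled at translation, fell in injured BALF at both times and had the lowest p of the regulators at 24 h. Atf5 (ENSMUSG00000038539.15, chr7:44812256-44816658, minus strand) had 228, 232 and 260 CPM in media at 6 h, 172, 205 and 227 CPM in uninjured BALF, and 153, 179 and 220 CPM in injured BALF. All BALF libraries lay below media, by 0.25 ± 0.11 in uninjured BALF, which did not pass the test (adjusted p = 0.13), and by a fall of 0.40 ± 0.11 in injured BALF (adjusted p = 0.0092). At 24 h it had 241, 303 and 396 CPM in media, 151, 214 and 263 CPM in uninjured BALF, and 119, 137 and 163 CPM in injured BALF. Injured BALF lay wholly below media, 2.23-fold lower (-1.16 ± 0.11, adjusted p = 5.1e-08), and 1.53-fold below uninjured BALF (-0.62 ± 0.11, adjusted p = 0.0012), whose lowest library, female replicate 2, fell inside its range. Uninjured BALF was 1.46-fold below media (-0.54 ± 0.11, adjusted p = 0.014), a call lost without any 1 of 4 libraries (adjusted p = 0.066 without female uninjured BALF 24 h replicate 2). Atf5 overlaps Nup62 by 571 bases and Il4i1 by 272 bases on the other strand.

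Cebpb, which encodes the basic leucine zipper factor C/EBPβ, went the other way at 6 h. It had 7.26, 13.9 and 19.4 CPM in media, 19.8, 28.5 and 43.7 CPM in uninjured BALF, and 27.1, 33.6 and 45.2 CPM in injured BALF. Both BALF ranges lay above that of media. The rise was 2.26-fold in uninjured BALF (1.18 ± 0.21, adjusted p = 0.00022) and 2.53-fold in injured BALF (1.34 ± 0.21, adjusted p = 2.1e-05). At 24 h media itself had 17.5, 23.4 and 31.2 CPM, uninjured BALF 15.5, 25.0 and 39.2 CPM, and injured BALF 25.2, 36.4 and 40.9 CPM. Injured BALF was 1.47-fold above media with overlapping ranges (0.55 ± 0.21, adjusted p = 0.050), and the call was lost when libraries 1 and 2 of each group were summed (adjusted p = 0.12). Cebpb overlaps Tmem189 by 908 bases on the other strand.

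Cebpg, a partner that pairs with ATF4 on CARE sites, fell in uninjured BALF at 6 h (-0.40 ± 0.13, adjusted p = 0.030), from 37.8, 43.5 and 56.9 CPM in media to 30.4, 34.5 and 41.6 CPM, with overlapping ranges. It changed in no other comparison. The Cebpg gene span shares 1140 bases with Gm44836 and 617 bases with Gm45094 on the same strand.

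Nupr1, a small stress-induced nuclear protein, was the member that rose in injured over uninjured BALF at 6 h. Nupr1 (ENSMUSG00000030717.9, chr7:126623249-126630861, minus strand) had 91.9, 152 and 241 CPM in media, 83.6, 119 and 139 CPM in uninjured BALF, and 141, 213 and 287 CPM in injured BALF. The 2 BALF ranges did not overlap, and media overlapped both. The rise over uninjured BALF was 1.82-fold (0.87 ± 0.23, adjusted p = 0.031), and it was lost without any 1 of 6 libraries (adjusted p = 0.10 without female injured BALF 6 h replicate 1) and with libraries 1 and 2 of each group summed (adjusted p = 0.42). Same-numbered libraries deviated together in this comparison. With the replicate number as a block in edgeR, Phgdh also passed, at an adjusted p of 0.047, and the count became 2. That block is an effect of the number shared by all 12 groups, so it does not model pairs within this comparison. At 24 h the order of Nupr1 levels had turned, with 118, 186 and 306 CPM in media, 70.5, 125 and 207 CPM in uninjured BALF, and 69.7, 83.2 and 106 CPM in injured BALF. Injured BALF lay wholly below media, 2.21-fold lower (-1.14 ± 0.23, adjusted p = 0.00062), and overlapped uninjured BALF.

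**Figure D2:**
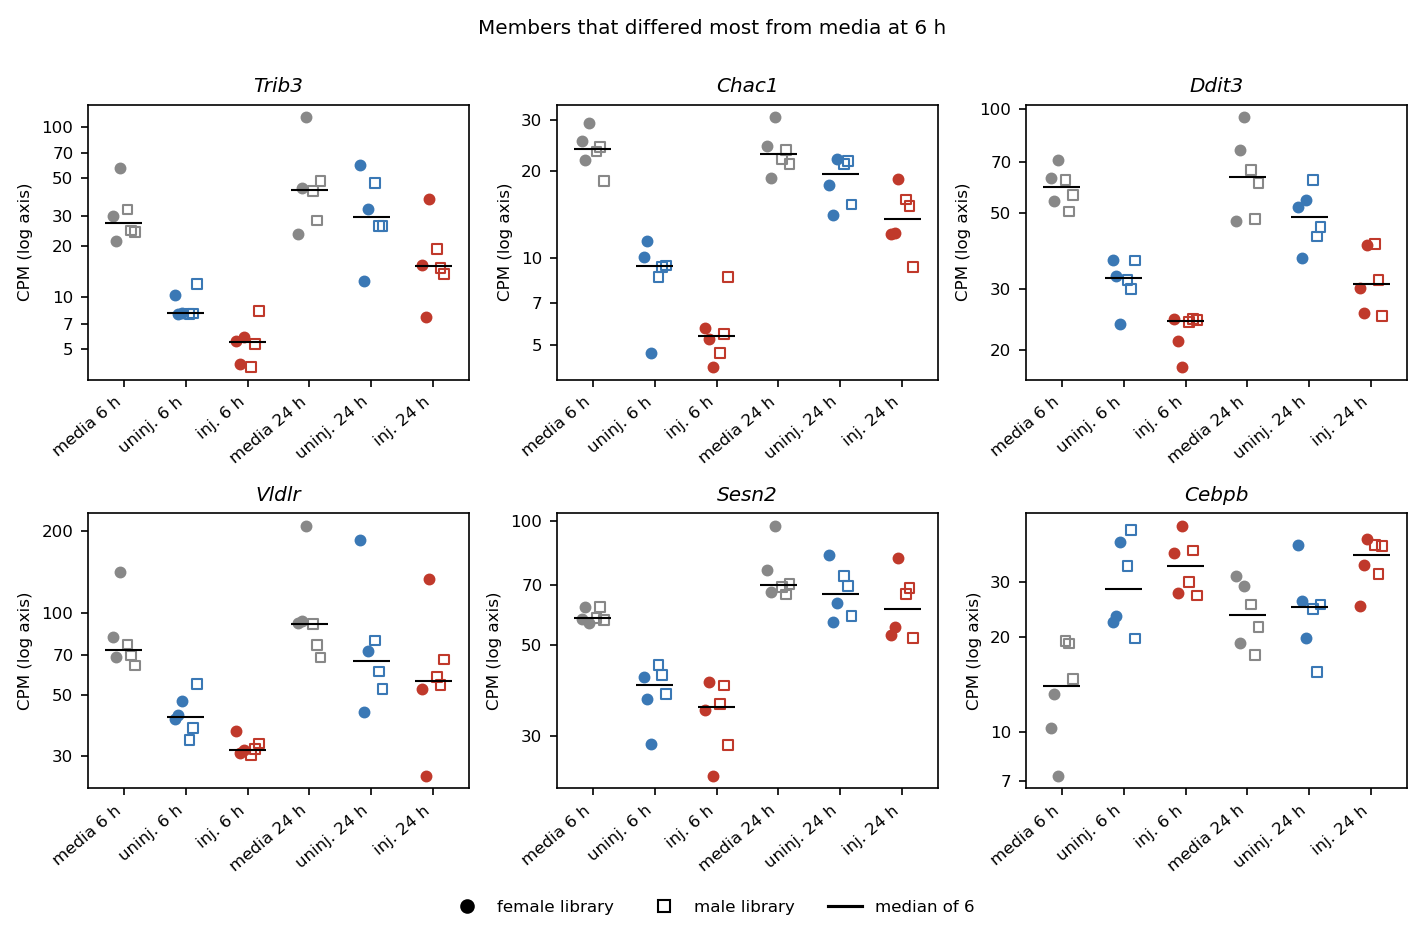
CPM on a log axis for Trib3, Chac1, Ddit3, Vldlr, Sesn2 and Cebpb in each of the 6 treatment and time groups, with filled circles for female libraries, open squares for male libraries and a line at the median of 6. At 6 h the BALF libraries of the first 5 genes lie below all media libraries and those of Cebpb lie above; at 24 h the uninjured BALF points overlap media again.

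Of the 4 other targets, Chac1, Sesn2, Vldlr and Stc2, all 4 fell in both fluids at 6 h. Of all genes, 7.82% fell in uninjured BALF and 11.4% in injured BALF. Chac1 degrades glutathione. Chac1 (ENSMUSG00000027313.3, chr2:119351229-119354381, plus strand) had 18.4, 23.7 and 29.3 CPM in media, 4.72, 9.38 and 11.4 CPM in uninjured BALF, and 4.21, 5.37 and 8.61 CPM in injured BALF. No BALF library reached the media range. It was 2.65-fold lower in uninjured BALF (-1.41 ± 0.19, adjusted p = 6.4e-06) and 4.18-fold lower in injured BALF (-2.06 ± 0.19, adjusted p = 7.2e-09), the latter the lowest p of any member in a comparison of treatments. The further step from uninjured to injured BALF was -0.66 ± 0.19 with an adjusted p of 0.056 in edgeR and 0.025 in DESeq2. At 24 h Chac1 had 18.8, 22.7 and 30.6 CPM in media, 14.1, 19.5 and 21.9 CPM in uninjured BALF, and 9.29, 13.7 and 18.7 CPM in injured BALF. Injured BALF remained below media, 1.68-fold lower (-0.75 ± 0.19, adjusted p = 0.0038), and uninjured BALF overlapped both.

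Sesn2, a leucine sensor that restrains mTORC1, had 56.4, 58.0 and 61.8 CPM in media at 6 h, 28.7, 39.8 and 44.6 CPM in uninjured BALF, and 24.0, 35.3 and 40.5 CPM in injured BALF. The ranges of both fluids lay below media, 1.53-fold lower in uninjured BALF (-0.61 ± 0.13, adjusted p = 0.0013) and 1.74-fold lower in injured BALF (-0.80 ± 0.13, adjusted p = 3.7e-05). At 24 h the levels were 66.3, 69.8 and 97.5 CPM in media, 56.7, 66.3 and 82.7 CPM in uninjured BALF, and 52.0, 61.0 and 81.4 CPM in injured BALF, and no treatment comparison passed. The Sesn2 gene span shares 6089 bases with the gene model Gm12981 on the same strand. Vldlr, a lipoprotein receptor, had 64.3, 73.3 and 142 CPM in media at 6 h, 34.2, 41.6 and 55.0 CPM in uninjured BALF, and 30.2, 31.6 and 36.9 CPM in injured BALF. These ranges lay apart from media as well. The fall was 1.93-fold in uninjured BALF (-0.95 ± 0.30, adjusted p = 0.028, and 0.10 without female media 6 h replicate 3, the library at 142 CPM) and 2.56-fold in injured BALF (-1.35 ± 0.31, adjusted p = 0.0014).

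Stc2, which encodes the secreted glycoprotein stanniocalcin-2, fell in BALF at 6 h and at 24 h was higher with injured fluid than with uninjured fluid. It had 5.52, 6.61 and 7.07 CPM in media at 6 h, 4.09, 4.77 and 6.58 CPM in uninjured BALF, and 3.54, 4.0 and 4.29 CPM in injured BALF. Injured BALF lay below media and was 1.63-fold lower (-0.70 ± 0.12, adjusted p = 5e-05), and uninjured BALF overlapped media with a fall of 0.38 ± 0.12 (adjusted p = 0.023, and 0.076 without male uninjured BALF 6 h replicate 2). At 24 h it had 6.3, 8.66 and 9.25 CPM in media, 5.65, 7.06 and 10.1 CPM in uninjured BALF, and 8.24, 9.43 and 12.2 CPM in injured BALF. The ranges overlapped, and injured BALF was 1.33-fold above uninjured BALF (0.42 ± 0.11, adjusted p = 0.032). That call was lost without any 1 of 7 libraries (adjusted p = 0.13 without female uninjured BALF 24 h replicate 3).

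Slc7a5 (ENSMUSG00000040010.10, chr8:121881150-121907694, minus strand) encodes LAT1, which brings in leucine and other large neutral amino acids, and Slc3a2 encodes the heavy chain that holds it at the membrane. In no comparison of treatments did both genes change, while both fell from 6 to 24 h in injured BALF. Slc7a5 had 104, 140 and 167 CPM in media at 6 h, 101, 121 and 130 CPM in uninjured BALF, and 99.9, 116 and 130 CPM in injured BALF, and it changed in no comparison at 6 h. At 24 h it had 122, 153 and 254 CPM in media, 86.2, 118 and 138 CPM in uninjured BALF, and 62.5, 69.2 and 100 CPM in injured BALF. Injured BALF lay wholly below media, 2.21-fold lower (-1.15 ± 0.14, adjusted p = 6.2e-07), and 1.53-fold below uninjured BALF (-0.61 ± 0.13, adjusted p = 0.0063), with overlapping ranges. No single library decided either call, but the second was lost with libraries 1 and 2 of each group summed (adjusted p = 0.15). In uninjured BALF the fall was 1.45-fold (-0.54 ± 0.13, adjusted p = 0.049), lost without any 1 of 30 of the 36 libraries. All 26545 bases of Slc7a5 overlap the gene model Gm20388 on the other strand. Slc3a2 rose in uninjured BALF at 6 h, from 137, 163 and 189 CPM to 193, 196 and 232 CPM, with no overlap (0.35 ± 0.11, adjusted p = 0.019), and injured BALF, at 151, 166 and 211 CPM, overlapped both.

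All 3 enzymes of asparagine and proline synthesis fell in injured BALF against media at 24 h, where 12.2% of all genes fell. Pycr1 makes proline in its last step. It had 20.8, 24.7 and 52.3 CPM in media, 13.5, 22.6 and 30.5 CPM in uninjured BALF, and 8.12, 12.7 and 22.1 CPM in injured BALF. The ranges of media and injured BALF overlapped at their edges, with a 2.23-fold fall (-1.16 ± 0.20, adjusted p = 0.00013). Asns, asparagine synthetase, went from 127, 140 and 222 CPM to 80.8, 99.9 and 152 CPM (-0.52 ± 0.15, adjusted p = 0.012), also with overlap. Aldh18a1, which starts proline synthesis from glutamate, went from 142, 157 and 214 CPM to 82.5, 116 and 173 CPM (-0.44 ± 0.13, adjusted p = 0.014), with overlap. Aldh18a1 was the 1 enzyme of the 3 that fell at 6 h, from 137, 146 and 161 CPM in media to 94.8, 117 and 122 CPM in uninjured BALF (-0.40 ± 0.13, adjusted p = 0.034) and 94.2, 110 and 117 CPM in injured BALF (-0.44, adjusted p = 0.014). Both BALF ranges lay below media.

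**Figure D3:**
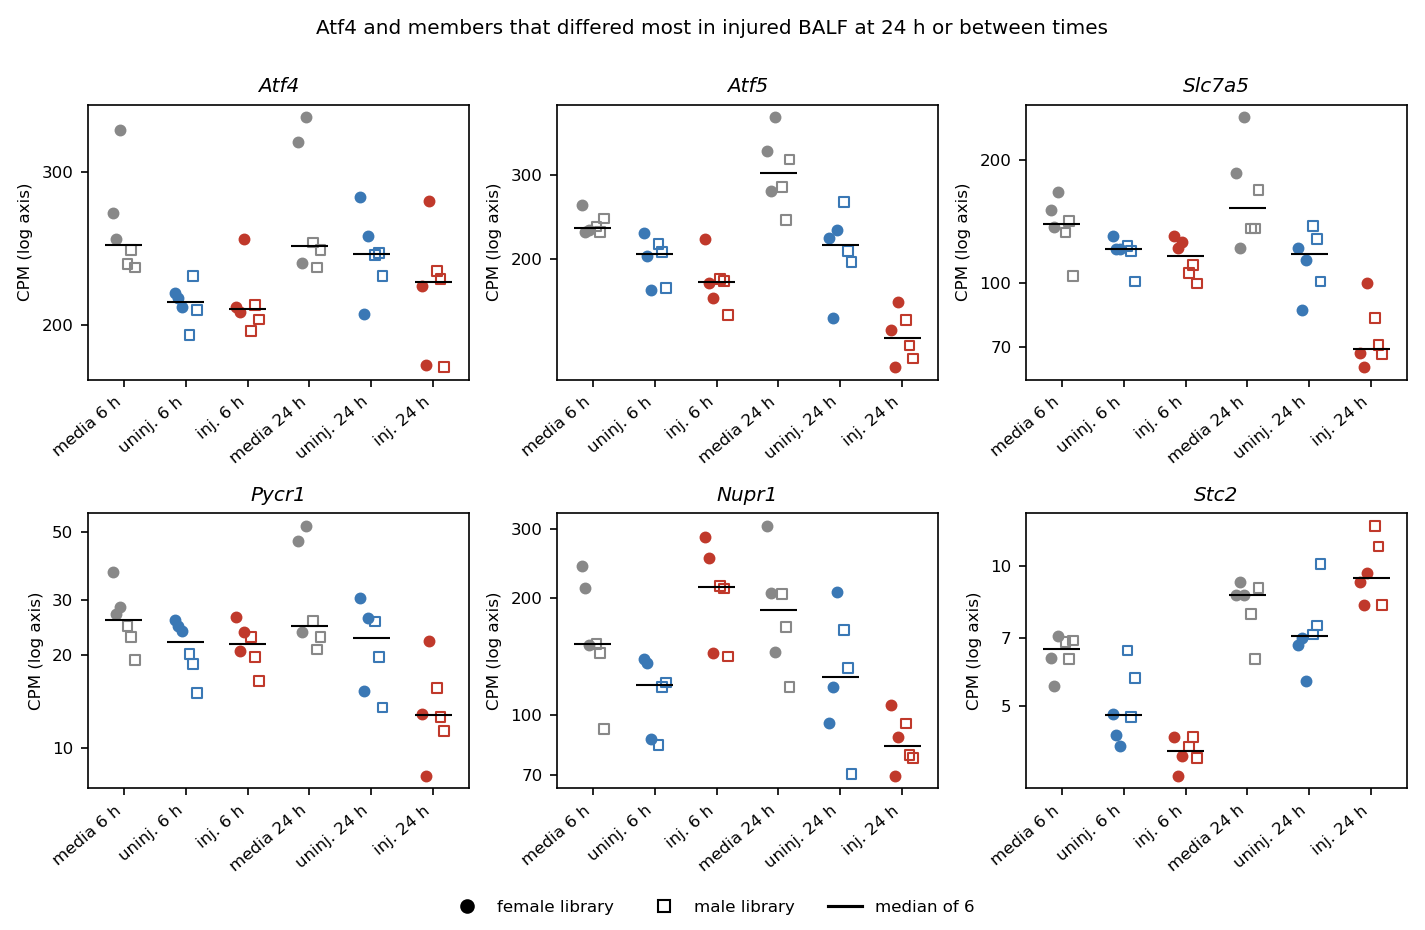
CPM on a log axis for Atf4, Atf5, Slc7a5, Pycr1, Nupr1 and Stc2 in the 6 treatment and time groups, with female libraries as filled circles, male libraries as open squares and the median of 6 as a line. At 24 h the injured BALF libraries of Atf5, Slc7a5 and Nupr1 lie below all media libraries, those of Atf4 and Pycr1 overlap media, and Stc2 is higher at 24 h than at 6 h in injured BALF.

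Of the 5 enzymes of serine synthesis and one-carbon metabolism, 2 changed in uninjured BALF at 6 h, 1 in injured BALF at 6 h and 2 in injured BALF at 24 h against media, where 18.4%, 25.2% and 23.7% of all genes did. Phgdh commits glucose carbon to serine synthesis. It had 206, 232 and 261 CPM in media at 6 h, 274, 293 and 301 CPM in uninjured BALF, and 185, 230 and 272 CPM in injured BALF. All uninjured BALF libraries lay above the other 2 treatments, and the rise over media was 0.32 ± 0.10 on the log2 scale (adjusted p = 0.030). That call was lost without any 1 of 7 libraries (adjusted p = 0.078 without male media 6 h replicate 3). At 24 h Phgdh had 127, 218 and 229 CPM in media, 174, 195 and 235 CPM in uninjured BALF and 141, 149 and 180 CPM in injured BALF. The fall in injured BALF against media, -0.36 ± 0.10 (adjusted p = 0.012), became -0.24 with an adjusted p of 0.074 without female media 24 h replicate 3. Mthfd2, a mitochondrial folate enzyme, fell in 3 comparisons with overlapping ranges. Its log2 fold change was -0.47 ± 0.14 in uninjured BALF at 6 h (adjusted p = 0.019), -0.47 in injured BALF at 6 h (adjusted p = 0.015), and -0.50 ± 0.14 in injured BALF at 24 h (adjusted p = 0.010). The Mthfd2 gene span shares 2799 bases with the gene model Gm43890 on the same strand. Psat1 and Psph, the next enzymes of serine synthesis, and Shmt2, which splits serine in mitochondria, changed in no comparison. Over all comparisons of treatments and times their fold changes lay between -0.22 and 0.02, -0.36 and 0.06, and -0.12 and 0.17.

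Of the 12 synthetases, which load amino acids onto tRNA, most changed in no comparison of treatments. The same is true of all genes tested, of which 40.7% changed in at least 1. Aars, the alanyl-tRNA synthetase, fell in 4 of the 6 comparisons. It had 310, 346 and 387 CPM in media at 6 h, 266, 292 and 305 CPM in uninjured BALF, and 238, 246 and 259 CPM in injured BALF. These 3 ranges did not touch each other. The fall was 1.41-fold in injured BALF (-0.49 ± 0.08, adjusted p = 4.3e-05) and 0.26 ± 0.08 on the log2 scale in uninjured BALF (adjusted p = 0.025, and 0.071 without female media 6 h replicate 3). The step between the fluids, -0.23, did not pass (adjusted p = 0.13). At 24 h it had 344, 379 and 485 CPM in media, 275, 323 and 359 CPM in uninjured BALF and 237, 261 and 326 CPM in injured BALF. Injured BALF lay below media, 1.46-fold lower (-0.55 ± 0.08, adjusted p = 1.4e-05), and 1.21-fold below uninjured BALF (-0.28 ± 0.08, adjusted p = 0.044), with overlap and lost without any 1 of 27 libraries. Aars shares 1326 bases with Exosc6 on the same strand, so reads there cannot be assigned by strand.

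Sars, the seryl-tRNA synthetase, fell in injured BALF against media at both times. It had 211, 226 and 249 CPM in media, 193, 222 and 227 CPM in uninjured BALF and 181, 189 and 216 CPM in injured BALF at 6 h (-0.27 ± 0.06, adjusted p = 0.0028, ranges overlapping). At 24 h it had 227, 237 and 291 CPM in media, 189, 204 and 222 CPM in uninjured BALF, and 178, 183 and 210 CPM in injured BALF. Both fluids lay below media, with -0.40 ± 0.07 in injured BALF (adjusted p = 4.8e-05) and -0.26 ± 0.06 in uninjured BALF (adjusted p = 0.047, lost without any 1 of 30 libraries). Cars (-0.27 ± 0.08, adjusted p = 0.014) and Mars (-0.28 ± 0.10, adjusted p = 0.030) fell in injured BALF at 6 h with overlapping ranges. Eprs, Gars, Iars, Lars, Nars, Tars, Wars and Yars changed in no comparison of treatments. At 6 h in media their median levels ran from 80.2 CPM for Wars to 468 CPM for Nars.

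The synthetases outside the gene set gave other counts. Of 8 other cytosolic synthetases, 5 rose and 0 fell in uninjured BALF at 6 h (median 0.24 against -0.10 for the 12 members), 5 rose in injured BALF at 6 h (0.32 against -0.10), and 6 rose in injured BALF at 24 h (0.26 against -0.16). Rars, for arginine, had 0.42 ± 0.09 in uninjured BALF at 6 h (adjusted p = 0.00082), and Farsb, a subunit for phenylalanine, had 0.41 ± 0.06 in injured BALF at 6 h (adjusted p = 2.1e-05). With library totals in place of the trimmed mean, the count in uninjured BALF at 6 h was 2. Of 17 mitochondrial synthetases, 1, 3 and 1 rose in these comparisons and 0 fell, led by Yars2 with 0.54 ± 0.11 in injured BALF at 6 h (adjusted p = 0.00075). In these comparisons the share changed was 62.5%, 62.5% and 75.0% of the 8 and 5.88%, 17.6% and 5.88% of the 17. Of the 12 members it was 8.33%, 33.3% and 16.7%. Over all genes it was 18.4%, 25.2% and 23.7%. The difference between the lists was not tested.

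**Figure D4:**
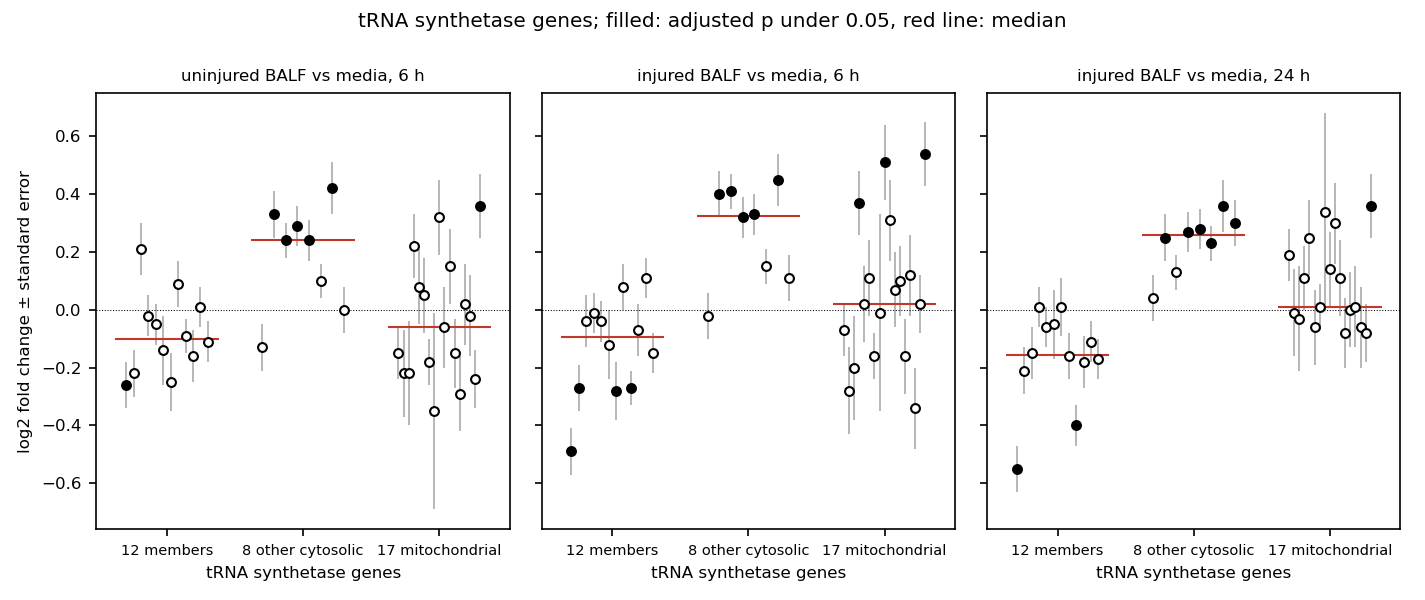
Log2 fold changes of 12 member synthetases, 8 other cytosolic synthetases and 17 mitochondrial synthetases in uninjured BALF against media at 6 h and in injured BALF against media at 6 h and 24 h, with bars for the SE, filled points for an adjusted p below 0.05 and a red line at each list's median. The medians of the members lie below 0 and those of the other cytosolic synthetases, from 0.24 to 0.32, lie above.

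Levels can be compared between genes only per length. In media at 6 h, the mean CPM per kilobase of exon was 119 for Atf5 and 111 for Atf4, 65.7 for Nupr1, 37.5 for Slc7a5 and 34.7 for Ddit3. It was 17 for Sesn2, 14.9 for Trib3, 14.5 for Chac1, 9.3 for Cebpb, 8.33 for Vldlr, 6.75 for Pycr1 and 1.26 for Stc2. Trib3 and Chac1, the members with the largest fold changes at 6 h, were near each other on this scale and well under Atf4.

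From 6 to 24 h in media, 2 members rose and 0 fell. The 6.06% of members changed is near the 6.84% of all genes (3.51% upward, 3.33% downward). The 2 were Cebpb (0.82 ± 0.21, adjusted p = 0.018, and 0.051 without male media 24 h replicate 1), whose ranges overlapped and whose difference of mean log2 CPM was 1.37 in female and 0.27 in male cells, and Atf5 (0.38 ± 0.11, adjusted p = 0.042, lost without any 1 of 17 libraries). With the replicate number as a block 4 passed, beside 11.3% of all genes. In uninjured BALF 6 rose and 3 fell, or 27.3% of members, which is near the 30.7% of all genes (15.2% upward, 15.5% downward). Trib3 was 3.75-fold higher at 24 h (1.91 ± 0.37, adjusted p = 0.00032), Chac1 2.09-fold (1.06 ± 0.19, adjusted p = 0.00011), and Sesn2 (0.81 ± 0.13), Ddit3 (0.62 ± 0.15), Vldlr (0.91 ± 0.30) and Stc2 (0.54 ± 0.12) also rose. The 24 h ranges of Trib3, Chac1, Sesn2 and Ddit3 lay wholly above those at 6 h. Vldlr rested on female uninjured BALF 24 h replicate 1, at 186 CPM where the next library had 79.3 CPM, and was 0.50 without it (adjusted p = 0.20). Phgdh (-0.55 ± 0.10), Slc3a2 (-0.47 ± 0.11) and Nars (-0.40 ± 0.08), the asparaginyl-tRNA synthetase, fell with ranges apart.

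In injured BALF 6 members rose and 10 fell from 6 to 24 h, beside 27.0% of all genes (12.8% upward, 14.2% downward). Trib3 rose 3.26-fold (1.71 ± 0.38, adjusted p = 0.0013), Chac1 2.46-fold (1.30 ± 0.19, adjusted p = 1.3e-05), Stc2 2.43-fold (1.28 ± 0.12, adjusted p = 1.1e-08), and Vldlr 2.01-fold (1.01 ± 0.30), and Sesn2 (0.89 ± 0.13) and Ddit3 (0.51 ± 0.16) also rose. Vldlr was 0.59 without female injured BALF 24 h replicate 3 (adjusted p = 0.14). Nupr1 fell most, 2.42-fold (-1.28 ± 0.23, adjusted p = 0.00016) with ranges apart, and Pycr1 (-0.64 ± 0.20), Slc7a5 (-0.62 ± 0.13), Phgdh (-0.57 ± 0.10), Nars (-0.46 ± 0.08), Asns (-0.42), Atf5 (-0.38 ± 0.11), Tars (-0.35), Slc3a2 (-0.29) and Wars (-0.18) fell too. With library totals in place of the trimmed mean, the median of all genes shifted from 0.01 to 0.13, 68.1% of changed genes were higher in place of 47.3%, and 6 members rose and 5 fell. In uninjured BALF the same change moved the median of all genes from 0.02 to 0.11, the higher share from 49.5% to 63.8% and the members to 9 risers and 3 that fell. For injured BALF against media at 24 h the higher share of all changed genes went from 48.6% to 60.3%, and the members to 1 higher and 12 lower. These splits differ only in how libraries were scaled. Ranges at 24 h lay wholly above those at 6 h for 1 member and below for 0 in media, beside 2.74% of all genes (1.31% above, 1.43% below), for 4 and 3 in uninjured BALF, beside 14.8% (6.12% above, 8.72% below), and for 4 and 4 in injured BALF, beside 15.6% (6.77% above, 8.87% below).

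The change of a treatment effect with time was itself tested. For uninjured BALF over media, 2 of 33 members differed between 24 h and 6 h, beside 1.96% of all genes (0.692% upward, 1.27% downward). The effect on Chac1 was 1.08 ± 0.26 higher at 24 h (adjusted p = 0.026), and that on Cebpb was lower at 24 h (-1.11 ± 0.29, adjusted p = 0.042). For Trib3 the difference was 1.26 ± 0.51 and did not pass (adjusted p = 0.21). For injured over uninjured BALF, 2 of 33 differed, beside 0.239% of all genes (0.151% upward, 0.088% downward): Nupr1, with -1.48 ± 0.33 (adjusted p = 0.047), and Stc2, with 0.74 ± 0.16 (adjusted p = 0.047). Each of the 4 was lost without at least 4 of the single libraries (adjusted p = 0.058 for Chac1 without female uninjured BALF 24 h replicate 3, and up to 0.098 for Cebpb and 0.13 for Nupr1 and for Stc2), and with libraries 1 and 2 summed. Fewer than 2 members passed without any 1 of 20 of the 36 libraries for uninjured BALF over media, and of 29 for injured over uninjured BALF. For Atf4 and Atf5 neither difference passed.

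No member, and no gene of the 15901, had a treatment effect that differed between female and male cells at an adjusted p below 0.05; with all 36 libraries this held for edgeR and for DESeq2. Without replicate 3 of each group, edgeR called 60 genes, none of them a member, for uninjured BALF against media at 24 h and 2 for injured against uninjured BALF at 24 h. At an unadjusted p below 0.05, edgeR called 168 genes for uninjured BALF against media at 6 h, 113 for injured against uninjured BALF at 6 h, 734 for uninjured BALF against media at 24 h and 150 for injured against uninjured BALF at 24 h, and DESeq2 called 232, 184, 836 and 219. The male effect minus the female effect was above 0 for 32 of 33 members for uninjured BALF against media at 6 h (median 0.19, against 0.00 for all genes), and for 14, 19 and 14 of 33 in the other 3 comparisons, in the order injured against uninjured BALF at 6 h, uninjured BALF against media at 24 h and injured against uninjured BALF at 24 h. Cebpb, at -0.61, was the 1 below 0 in the first. In that comparison the same difference was above 0 for 20 of 23 other ATF4 targets (median 0.16), for 8 of 8 endothelial markers (1.36), 6 of 6 mesothelial markers (2.04) and 8 of 8 macrophage markers (0.47). Female media 6 h replicate 3, which enters each of these differences, had the highest of the 6 values for 21 of 33 members at 6 h. Male media 6 h replicate 3, which enters them as well, had the lowest for 22. The part of either library in these differences was not tested.

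The female library numbered 3 was also highest for many members in some other groups, though these are separate libraries. The share of all genes for which each library was highest or lowest was not measured. Over all genes, female media 6 h replicate 3 lay farther from replicates 1 and 2 than these from each other. The root mean square log2 differences were 0.68 and 0.69, against 0.44. Female replicate 3 had the highest value of 6 for 25 members in media at 24 h and 25 in injured BALF at 24 h. The count was 12 in injured BALF at 6 h, 5 in uninjured BALF at 6 h and 6 in uninjured BALF at 24 h. Trib3 in media at 24 h was 114 CPM in female replicate 3 and at most 48.2 CPM in the other 5. Without female media 6 h replicate 3, 7 members changed in uninjured BALF against media at 6 h in place of 14. Without male media 6 h replicate 1, female uninjured BALF 6 h replicate 3 or male uninjured BALF 6 h replicate 2 the count was 9, 7 and 9. Trib3, Chac1, Ddit3, Sesn2 and Cebpb passed without each single library in turn.

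Pericyte markers moved in the same comparisons. Their summed level had a median of 1730 CPM in media, 1310 CPM in uninjured BALF and 1210 CPM in injured BALF at 6 h, and 1630, 1310 and 867 CPM at 24 h. Of the 10 tested, 5 fell in injured BALF against media at 6 h and 6 at 24 h, 1 in uninjured BALF at 6 h and 3 in injured against uninjured BALF at 24 h. Over all genes, 11.4%, 12.2%, 7.82% and 2.04% fell in these comparisons. The 8 neutrophil markers summed to between 5.48 and 9.02 CPM in injured BALF at 24 h and to between 0.348 and 1.93 CPM in media at 24 h, with Ly6g at 0 in both. Of the 8 macrophage markers 4 rose in injured BALF against media at 24 h, where their sum went from a median of 47.1 to 70.6 CPM, and 2 in uninjured BALF and 1 in injured BALF at 6 h. Over all genes, 11.5%, 10.6% and 13.9% rose in these comparisons. The 6 mesothelial markers, of which 0 changed in a comparison of treatments, summed to 227 and 200 CPM in male replicate 3 of uninjured and injured BALF at 6 h and to 18.2 CPM in male media 6 h replicate 3. The sum of the 8 fibroblast markers had a median of 21300 CPM in media, 17200 CPM in uninjured BALF and 15800 CPM in injured BALF at 6 h, and of 21100, 21100 and 15800 CPM at 24 h. The part of these markers in the changes of the members was not tested.

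Upstream of ATF4, none of 16 genes for eIF2α kinases, phosphatases and translation factors fell in a comparison of treatments. The share changed was close to that of all genes, 18.8% against 18.4% in uninjured BALF and 25.0% against 25.2% in injured BALF at 6 h. In uninjured BALF at 6 h 3 rose, which were Eif2b4 (0.40 ± 0.08, adjusted p = 0.00052) and Eif2b2 (0.34 ± 0.08), subunits of the exchange factor eIF2B, and Eif2ak4 (0.31 ± 0.09), which encodes the amino acid sensing kinase GCN2. In injured BALF 4 rose at 6 h, with Eif2b3 at 0.54 ± 0.12 (adjusted p = 0.00095), and 2 at 24 h. The median was 0.11 in uninjured BALF at 6 h. The kinases act through phosphorylation, which mRNA does not report.

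Other genes known as ATF4 targets were split. Of 23, 3 rose and 4 fell in uninjured BALF at 6 h, 4 rose and 8 fell in injured BALF at 6 h, and 3 rose and 3 fell in injured BALF at 24 h against media. The share changed was 30.4%, 52.2% and 26.1%, beside 18.4%, 25.2% and 23.7% of all genes, the last pair being near. Jdp2, a basic leucine zipper repressor, fell by 0.72 ± 0.11 (adjusted p = 4.3e-05), 0.85 ± 0.11 (adjusted p = 2e-06) and 0.89 ± 0.11 (adjusted p = 1.7e-06) in these comparisons. Sqstm1, an autophagy receptor, rose by 0.86 ± 0.12 in uninjured BALF at 6 h (adjusted p = 1.1e-05), and Vegfa, a growth factor for vessels, by 1.22 ± 0.20 in injured BALF at 6 h (adjusted p = 3.1e-05). Of the promoters of this list 6 of 20, or 30.0%, held the core TGATGNAA.

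Amino acid carriers beside Slc7a5 and Slc3a2 also went both ways. Of 14, 2 rose and 1 fell in uninjured BALF at 6 h, 2 rose and 4 fell in injured BALF at 6 h, and 3 rose and 2 fell in injured BALF at 24 h against media. The share changed was 21.4%, 42.9% and 35.7%, beside 18.4%, 25.2% and 23.7% of all genes, the first pair being near. Slc7a11, the cystine carrier subunit that is commonly counted as an ATF4 target, rose by 3.77 ± 0.63 in uninjured BALF at 6 h (adjusted p = 9.2e-05), by 3.28 ± 0.61 in injured BALF at 6 h (adjusted p = 0.00019) and by 2.97 ± 0.61 in injured BALF at 24 h (adjusted p = 0.00068). Chac1, which breaks down the glutathione that cystine feeds, fell in the same 3 comparisons. Slc1a4, a carrier of alanine and serine, fell in injured BALF against both media and uninjured BALF, by 1.2 ± 0.14 (adjusted p = 3e-07) and 0.82 ± 0.14 (adjusted p = 0.00039) at 6 h.

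Of the 16 other genes of serine, one-carbon and proline metabolism, 5 rose and 0 fell in uninjured BALF at 6 h, and 6 rose and 2 fell in injured BALF at 6 h. At 24 h 5 rose and 1 fell in injured BALF, the latter being Aldh1l2 (-1.31 ± 0.26, adjusted p = 0.00057), a mitochondrial folate enzyme. Of the 17 genes of the other unfolded protein arms, ATF6 and IRE1, 4 rose and 0 fell in uninjured BALF at 6 h, 4 rose and 1 fell in injured BALF at 6 h, and 6 rose and 0 fell at 24 h. Ern1, which encodes IRE1α, rose by 0.75 ± 0.11 (adjusted p = 1.9e-05) and 0.87 ± 0.11 (adjusted p = 9.2e-07) at 6 h. Of 14 genes that sense amino acids upstream of mTORC1, 1 rose and 2 fell in uninjured BALF at 6 h, 2 rose and 6 fell in injured BALF at 6 h, and 2 rose and 1 fell at 24 h. Sesn3, a relative of Sesn2, fell in all 3 comparisons, by 0.64 ± 0.21, 0.93 ± 0.21 and 0.77 ± 0.20. Beside the counts of these 3 lists, 10.6% of all genes rose and 7.82% fell in uninjured BALF at 6 h. The shares in injured BALF were 13.9% and 11.4% at 6 h and 11.5% and 12.2% at 24 h.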

How the data were processed

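RNA of 36 libraries, in 12 groups of 3 by treatment, sex and time, was sequenced from stranded mRNA libraries, per the labels' protocols. The deposited values are whole-number counts per gene; STAR 2.5.2b, RSEM 1.2.31, DESeq2 and GRCm38 are named in the submitters' processing notes without their roles, so the counts may be rounded estimates. Of 48795 identifiers, 48349 (99.1%) matched GENCODE M21, which gave symbols, positions and exon lengths; the rest held at most 0.0513% of a library. Library totals ran from 17134840 to 35991683.

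Counts were filtered with filterByExpr, scaled by the trimmed mean of M-values (TMM; factors 0.874 to 1.092) and fitted with edgeR 4.0.16 in R 4.3.3, as a quasi-likelihood model with 12 group means and 24 residual degrees of freedom (common biological coefficient of variation 22.5%). Effects were averaged over the sexes with equal weight; each SE is the size of the effect over the root of its F statistic, and p-values were adjusted over all 15901 genes tested. The scripts were tested on simulated data. The members and all gene lists were chosen with earlier results of these data known. Members described with values were Atf4, Atf5 and Ddit3, the 5 changed members of largest fold change and the 3 of lowest p in each comparison, and those whose effect differed between times. From other lists, up to 3 changed genes of lowest p per comparison could be named. A few further members are given to account for all 33.

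Libraries carrying the same number deviated together in all 6 pairs only in injured against uninjured BALF at 6 h (correlations 0.33 to 0.65), a link that comes from the data, since the labels do not say what a number shares. Alternatives were DESeq2 1.42.0, other scalings, filters and thresholds, a replicate block, fits of only the groups compared, and leaving out or summing libraries. The block was shared by all 12 groups, and no fit modelled pairs within a comparison. Promoters were read from RefSeq windows on GRCm38.p6, which had entries for 28 members. One member's promoter sequence and one other gene are not reported here.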

Additional observations from a re-analysis of the deposited data

Results flagged for a closer look

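Among 90 sets of 6 libraries of the named members, 8 held a library far from the other 5 by Dixon's ratio at its 95% level; chance gives about 1 in 20. Female media 6 h replicate 3 was the highest for Vldlr, with 142 CPM where the others had 64.3 to 81.7 CPM. Female media 24 h replicate 3, a separate library, was highest for Vldlr at 24 h, with 209 CPM against 68.8 to 93.2 CPM. Female media 24 h replicate 3 was also highest for Sesn2, with 97.5 CPM against 66.3 to 76.1 CPM. Female injured BALF 6 h replicate 3 was highest for Atf4, with 251 CPM against 197 to 211 CPM. Female injured BALF 24 h replicate 3 was highest for Sars, with 210 CPM against 178 to 184 CPM. Male injured BALF 6 h replicate 3 was highest for Sars, with 216 CPM against 181 to 192 CPM. In uninjured BALF at 6 h, female replicate 3 was lowest for Chac1, with 4.72 CPM against 8.6 to 11.4 CPM, and male replicate 3 was lowest for Slc7a5, with 101 CPM against 120 to 130 CPM.

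The effect of a treatment differed between 6 and 24 h, by a test of the difference itself, for 4 members. For uninjured BALF over media the effect at 24 h minus that at 6 h was 1.08 for Chac1 and -1.11 for Cebpb on the log2 scale. For injured over uninjured BALF it was -1.48 for Nupr1 and 0.74 for Stc2.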

How the results depend on the processing

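No called result changed direction under any alternative run, and of 65 calls of named members, all 65 were kept by DESeq2, 63 with DESeq2's size factors in edgeR, 38 with libraries 1 and 2 of each group summed, 37 with the other summing below, and 34, 33 and 51 without replicate 1, 2 and 3. In the counts below, a comparison is given as treatment against reference. The replicate block gave 2 members for injured against uninjured BALF at 6 h and 4 for 24 h against 6 h in media; no other count of members moved by over 1.5 times with it. DESeq2 gave the same 2 counts, 2 and 4. Beside these, 4.47% and 11.3% of all genes changed with the block, and 4.02% and 11.1% with DESeq2. At an adjusted p below 0.01, 5 members changed in uninjured BALF against media at 6 h and 0 at 24 h, 0 in injured against uninjured BALF at 6 h and 2 at 24 h, and 9 in injured BALF against media at 24 h; 0 changed from 6 to 24 h in media and 9 in injured BALF, and 0 for either difference of effects between times. At that threshold 1019 of the 15901 genes rose and 596 fell in uninjured BALF against media at 6 h. With libraries 1 and 2 summed, the same comparisons of treatments gave 6, 0, 0, 1 and 8 members in the same order. There were 9 in injured BALF against media at 6 h, 0 in media over time, and 0 for both differences. All genes gave 9.46%, 0.0297%, 0.624%, 1.03%, 12.6%, 16.4%, 0.0475%, 0.0178% and 0.0% in turn. Summing libraries 2 and 3 in female uninjured BALF at 24 h, an alternative chosen after seeing the data, gave 6, 0, 0, 1, 8, 9, 0 and 0 again, with 10 from 6 to 24 h in injured BALF. Library totals gave 1 in uninjured BALF against media at 24 h, 2 in injured against uninjured BALF at 24 h, and 1 for each difference between times. The shares of all genes were 0.692%, 4.35%, 1.69% and 0.277%. No low-count filter gave 3 in injured against uninjured BALF at 24 h, 1 in media over time and 1 for the difference of the injury effect. Here 2.12%, 2.37% and 0.165% of all genes changed. A minimum of 1 CPM in 6 libraries gave 1 in uninjured BALF against media at 24 h, beside 0.982% of all genes. Fits of only the groups compared gave 0 there, 4 and 2 in injured against uninjured BALF at 6 and 24 h, 1 in media over time, and 1 and 0 for the differences. Shares of all genes were 0.185%, 4.43%, 2.85%, 3.53%, 1.19% and 0.194%. Without 4 libraries whose description numbers stand apart, 9 changed in uninjured BALF against media at 6 h, 0 at 24 h, 0 in media over time, and 0 for the difference of the uninjured BALF effect. In this run 14.0%, 0.305%, 2.32% and 0.822% of all genes changed. Leaving out 1 library or 1 replicate number gave 4 to 16 members in uninjured BALF against media at 6 h and 0 to 4 at 24 h, 0 to 3 and 0 to 11 in injured against uninjured BALF, 8 to 15 and 6 to 17 in injured BALF against media, 0 to 4, 7 to 12 and 7 to 16 over time in media, uninjured and injured BALF, 0 to 3 and 0 to 2 for the differences, and 0 to 0 for sex. Without replicate 1, 2 and 3, the share of all genes in uninjured BALF against media at 6 h was 7.88%, 5.9% and 15.3%. In injured BALF against media at 24 h it was 11.8%, 8.41% and 22.7%. With all libraries these shares were 18.4% and 23.7%, so the loss was not particular to the members. The causes were not tested. Stc2, with at most 12.2 CPM, had the lowest median level of the members in each treatment and time.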

Other observations

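In 10 of the 12 groups, libraries 1 and 2 were the closest pair of the 3 over all genes tested, by the root mean square of their log2 differences. Female media at 24 h and female uninjured BALF at 24 h were the 2 others. The libraries that held the lowest value of their 6 for the most members were male media 6 h replicate 3 (22 of 33), female injured BALF 24 h replicate 2 (19), and female uninjured BALF 24 h replicate 2 and male uninjured BALF 6 h replicate 1 (15 each). The same share over all genes was not measured.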
